A study of Mus musculus with 48 samples.

Results

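Kidney slices kept under normoxia for 24 h were compared with control slices taken at 6 h, in 12 of the 48 RNA-seq libraries of a study of kidney slices treated outside the body. The libraries were chosen by their labels: 6 normoxia libraries, which the labels describe as a model of ischemia, and 6 control libraries of the 6 h time point. Each side holds 3 libraries from the inbred strain C57BL/6J and 3 from the inbred strain DBA/2J, all from kidneys of male mice. The 6 h slices are labelled only as controls, and tunicamycin and cyclosporin A, used elsewhere in the study, were given to neither side. The labels give no age of the mice, no oxygen level for the control slices, and no statement of whether 1 mouse gave slices to several libraries beyond a biological replicate number. The p-values below therefore measure the spread between these libraries, part of which may be technical. The 24 h duration comes from the titles of the normoxia libraries, so the oxygen condition and the time in culture differ together between the groups and cannot be told apart in this comparison.

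A kidney slice holds glomeruli, with their filtering podocytes, and tubule segments in which the proximal tubule takes back most of the filtered solute. Cutting and culturing tissue is known to switch on immediate early genes such as Fos and Atf3, whose products are transcription factors that act on genes of later waves. Heat shock chaperones are known to be induced by a factor of their own, Hsf1. Proximal tubule cells are known to lose transporters when injured and to gain Havcr1 (kidney injury molecule) and Lcn2 (a lipocalin used as a marker of kidney injury).

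The counts summed to between 17488855 and 24426584 per library. Genes of the mitochondrial genome took 15.4% ± 0.783 (SD, n = 3) of the counts in C57BL/6J controls and 23.9% ± 1.55 under normoxia, and 8.16% ± 0.145 and 12.3% ± 0.534 in DBA/2J. The share was 6.32 percentage points higher under normoxia over both strains (exact two-sided permutation within strains, p = 0.005, the smallest value that the 400 arrangements allow). Levels are given as CPM (counts scaled to a fixed library total), and differences as log2 fold changes from edgeR's model, normoxia against 6 h controls, averaged over both strains. A gene is said to have risen or fallen where its Benjamini-Hochberg adjusted p-value over all genes tested was under 0.05. Kidney identity was checked by the summed level of marker lists over the 12 libraries. Proximal tubule markers summed to between 3863 and 19471 CPM and podocyte markers to between 616 and 2672 CPM, against 10.9 to 25.6 CPM for lymphocyte and 1.09 to 4.56 CPM for urothelium markers.

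Of 16819 genes tested, 5531 (32.9%) were higher under normoxia and 5528 (32.9%) lower. The scaling centres the fold changes (median log2 0.02), so the near-equal counts are not read as a result. They were 5307 higher and 5636 lower with library totals alone, and 5698 and 5431 with median-ratio factors. Changes of more than log2 1 were found for 1117 genes that rose (6.64%) and 1909 that fell (11.4%), and beyond log2 4 for 9 that rose and 163 that fell. In 3522 genes (20.9%) all 3 normoxia libraries of each strain lay above all 3 of its controls, and in 3961 (23.6%) all lay below. Overlap was counted on log2 CPM scaled by TMM, and CPM values scaled by library totals alone can differ from it for small changes. The genes that rose by more than log2 1 included 73 solute carriers among 1117 and were protein coding in 62.9%. Those that fell included 28 solute carriers among 1909 and were protein coding in 88.1%. Among all genes tested, 310 were solute carriers and 86.2% coded for protein. Any count of list members below is to be read against these shares of all genes.

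The 9 genes that rose beyond log2 4 all had a mean log2 CPM under 3, so the largest changes were taken among genes with a mean log2 CPM of at least 3, a name that is not a predicted one and no overlap between the groups in either strain. By that rule the 10 largest falls included the small proline-rich gene Sprr1a, the immediate early genes Atf3 and Fosb, the cytokine gene Lif and the heat shock genes Hspa1a and Hspa1b. The 10 largest rises were 6 genes of the mitochondrial genome, the solute carrier genes Slc22a19, Slc22a7 and Slc38a3, and the protease gene Mep1b. Of the mitochondrial genes, mt-Atp6, mt-Co2 and mt-Co3 have values that are uncertain, for a reason given below. The others were the transfer RNA genes mt-Tl1 and mt-Tm and the protein-coding mt-Nd6. The sequences before the transcription starts of 3 genes, Sprr1a, Cxcl1 and Dusp5, are shown because their lists moved together. They are taken from RefSeq on build GRCm38.p6 and run 5′ to 3′ from 250 to 37 bases before the start. Capitals mark letters found by a search for fixed motifs on both strands. The AP-1 motif was searched as TGACTCA, to which Fos and Jun proteins bind. The cyclic AMP response element (CRE), a motif of the ATF and CREB factors, was searched as TGACGTCA. The TATA box, where transcription is set up, was searched as TATAAA. The CArG box of serum response factor, the kappaB site and the heat shock element are given by name.
Sprr1a, chr3:92485918-92486131, minus strand, AP-1 letters from -146 to -140 and from -116 to -110 and a TATA match from -43 to -38: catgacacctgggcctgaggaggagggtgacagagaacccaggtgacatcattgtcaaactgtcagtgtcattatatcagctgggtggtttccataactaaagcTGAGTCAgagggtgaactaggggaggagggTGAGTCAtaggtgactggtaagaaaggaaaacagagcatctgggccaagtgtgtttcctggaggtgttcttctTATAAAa
Cxcl1, chr5:90890995-90891208, plus strand, 2 overlapping kappaB matches from -71 to -61: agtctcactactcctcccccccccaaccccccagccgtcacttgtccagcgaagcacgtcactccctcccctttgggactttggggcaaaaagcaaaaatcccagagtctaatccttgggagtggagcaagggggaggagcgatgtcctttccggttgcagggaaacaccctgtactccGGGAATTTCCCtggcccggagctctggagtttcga
Dusp5, chr19:53528895-53529108, plus strand, CArG boxes from -82 to -73 and from -72 to -63: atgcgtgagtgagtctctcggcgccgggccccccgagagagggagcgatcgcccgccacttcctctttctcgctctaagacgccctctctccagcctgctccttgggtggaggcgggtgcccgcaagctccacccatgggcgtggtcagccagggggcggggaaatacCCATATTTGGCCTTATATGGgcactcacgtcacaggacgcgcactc

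In the GENCODE M21 annotation the windows of Sprr1a and Cxcl1 lie outside any gene, and that of Dusp5 overlaps an exon of a non-coding gene on the opposite strand. Over the 250 bases before the start, AP-1 letters were present in 4.46% of all 32851 promoters of the table and in 3.57% of those of genes tested. They were present in 25 of 130 promoters (19.2%) of 108 matched genes that fell by more than log2 4. TATA, kappaB, CArG and CRE matches were also more frequent in that set than among genes tested: TATA letters in 18.5% against 7.02%, kappaB matches in 16.9% against 8.82%, CArG boxes in 5.38% against 1.16% and CRE letters in 5.38% against 2.34%. Not every motif searched was more frequent there. AP-1 letters were in 0 of 24 promoters of the immediate early list. The table held 92 of the 133 genes named by rule. AP-1 letters were also present in 5 of the 5 promoters found for tested small proline-rich genes, which are a family of related sequences. A kappaB match was present in 7.25% of all promoters and in 12 of 20 promoters of the list of NF-kappaB subunits and targets, a list that was made for such genes. CArG boxes were present in 1.47% of all promoters and in 5 of 24 promoters of the immediate early list. TATA letters were present in 12.4% of all promoters, CRE letters in 1.55% and heat shock elements in 0.466%. A match is a description of letters, and binding was not measured.

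Immediate early transcription factors were lower under normoxia in all but 1 member of the list. Of 23 genes in the list, 22 fell, none rose and Klf2 did not pass the test, and the median log2 fold change was -4.40, against 0.02 over all genes. In all 22, the normoxia libraries of each strain lay below the controls without overlap. The levels that remained differed widely, from means of 0.0505 and 0.101 CPM for Fosl1 to 119 and 163 CPM for Jund, in C57BL/6J and DBA/2J. Atf3, an ATF/CREB-family factor induced by many stresses (chr1:191170296-191218039), was at 1176, 1451 and 1556 CPM in the C57BL/6J controls and at 1051, 897 and 717 CPM in the DBA/2J controls. Under normoxia it was at 2.23, 2.82 and 2.19 CPM in C57BL/6J and, in DBA/2J, at 1.47, 1.25 and 1.47 CPM. All 6 normoxia values of Atf3 thus lay far below the lowest control, a log2 fold change of -9.22 (SE 0.149, adjusted p = 5.42e-15). Fos, a founding subunit of AP-1 (chr12:85473890-85477273), was at 500, 458 and 554 CPM in C57BL/6J controls and 503, 375 and 399 CPM in DBA/2J controls. It was at 4.85, 7.72 and 5.46 CPM and at 5.20, 9.12 and 15.2 CPM under normoxia, a log2 fold change of -5.90 (SE 0.230, adjusted p = 7.98e-10). The groups did not overlap for Fos either, and the highest normoxia value came from DBA/2J replicate 3. Fosb, a further AP-1 subunit, fell by 8.60 on the log2 scale (SE 0.358, adjusted p = 5.12e-09), from between 345 and 731 CPM to between 0.561 and 2.69 CPM. For Fosl1, also an AP-1 subunit, 3 counts in the C57BL/6J normoxia libraries together stood against 5404 in the controls, a ratio of control to normoxia of 2054 after scaling by depth (95% counting interval 702 to 9962). In DBA/2J the counts were 7 and 5366, a ratio of 880 (427 to 2190). The intervals cover counting error only. The same direction held for members of other families, such as Egr1, a zinc finger factor (log2 fold change -5.45, SE 0.326), Nr4a1, an orphan nuclear receptor (-5.36, SE 0.266), Junb (-4.81, SE 0.104) and Myc (-4.49, SE 0.240). Arc, a neuronal immediate early gene named by its size of change alone, fell by 6.66 on the log2 scale (SE 0.288, adjusted p = 5.37e-09).

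**Figure D1:**
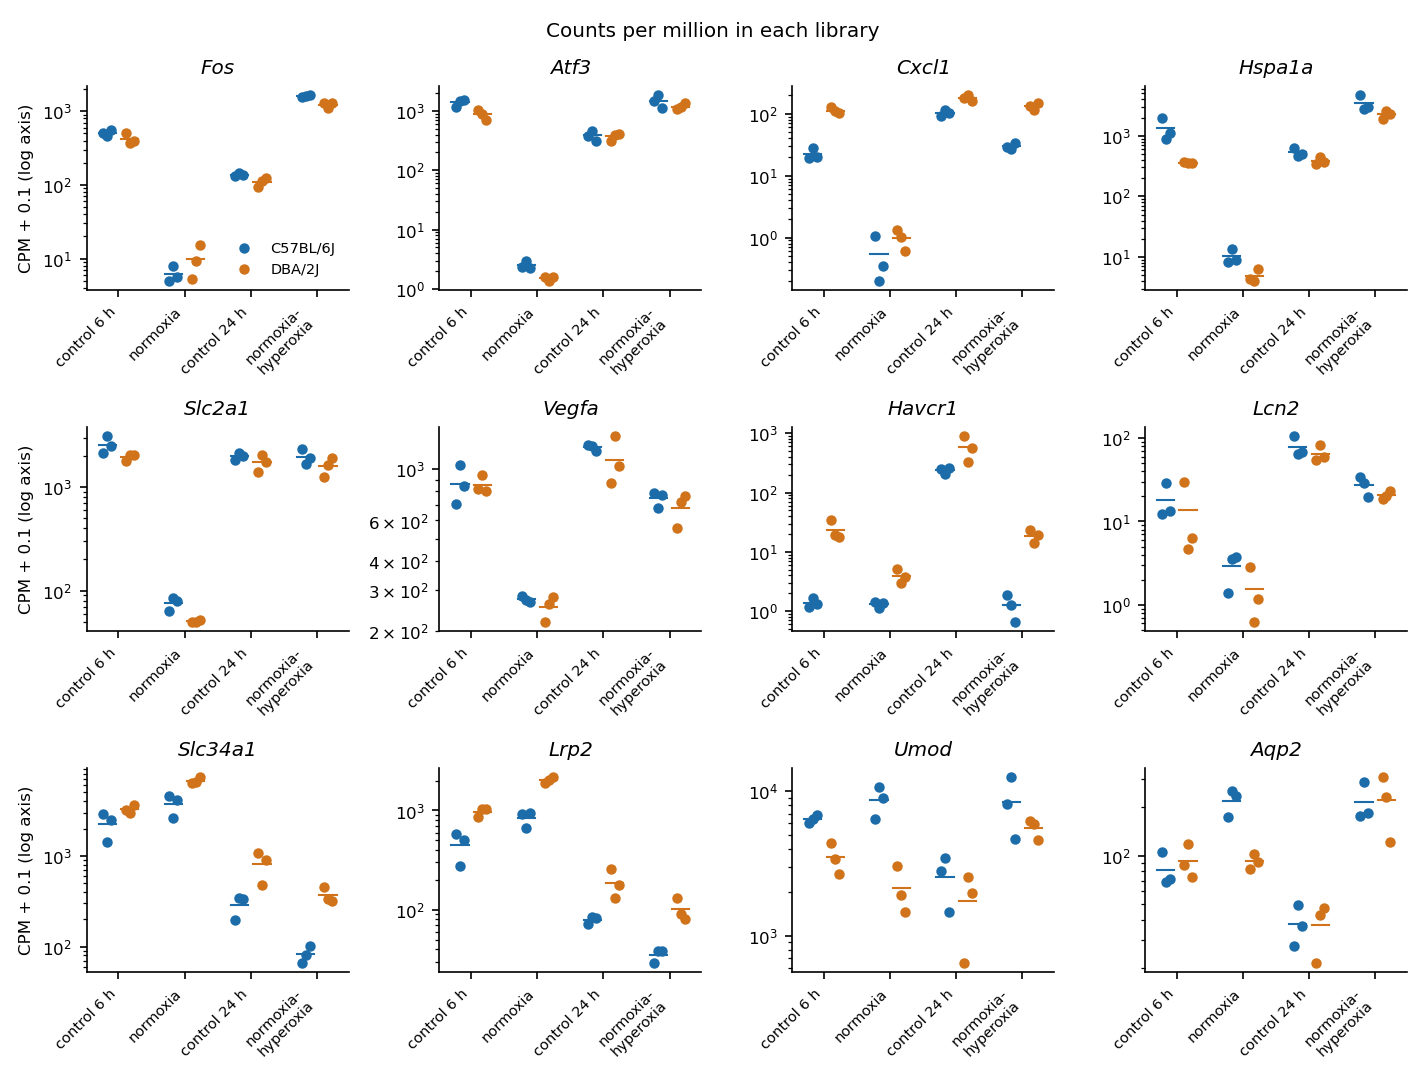
Levels of 12 genes in each library as CPM plus 0.1 on a log axis, by condition and strain (C57BL/6J blue, DBA/2J orange), with a bar at the mean of 3 libraries. The 6 normoxia values of Atf3 lie between 1.25 and 2.82 CPM and the 6 h controls between 717 and 1556 CPM, while Slc34a1 and Lrp2 are higher under normoxia than in the controls of their strain on average.

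The genes that damp MAP kinase signaling moved the same way. Of 20 phosphatases and feedback inhibitors, 19 fell, none rose and Spred2 did not pass the test, with a median log2 fold change of -2.18. Gadd45b, a stress-induced regulator of MAP kinase kinases, was at 477, 400 and 426 CPM in C57BL/6J controls and 401, 322 and 270 CPM in DBA/2J controls, against 3.63, 5.79 and 4.80 CPM and 2.13, 2.19 and 2.35 CPM under normoxia. The values of the groups lay apart by a wide margin in both strains, a log2 fold change of -6.85 (SE 0.130, adjusted p = 1.11e-14). Dusp5, a nuclear phosphatase of ERK whose promoter is shown above, fell by 4.93 on the log2 scale (SE 0.223, adjusted p = 3.72e-09), from between 48.2 and 115 CPM to between 1.58 and 4.08 CPM. Zfp36, which promotes decay of cytokine mRNAs, fell by 4.80 on the log2 scale (SE 0.122), and Dusp1 by 2.19 (SE 0.0842).

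Cytokine and chemokine genes were lower under normoxia wherever they could be tested. Of 23 genes in the list, 19 were expressed enough to be tested and all 19 of these fell, and Cxcl5, Il1a, Il23a and Csf2 were below the filter on low counts. Some members kept a clear level: Cx3cl1, a membrane-bound chemokine, had normoxia means of 91.6 CPM (C57BL/6J) and 48.7 CPM (DBA/2J), and Cxcl16 had 44.8 and 42.8 CPM. Since 4 of them were at 3 counts or fewer in every library of at least 1 group, the median log2 fold change of -5.13 depends on the fit, and it was -3.77 with those genes at their bound. The same 4 could pass the low-count filter only through groups where they were higher, so their falls were largely set by the filter. Lif, an interleukin-6 family cytokine, was at 108, 251 and 129 CPM in C57BL/6J controls and 97.0, 83.2 and 96.9 CPM in DBA/2J controls, against 0.437, 0.396 and 0.357 CPM and 0.778, 0.730 and 0.547 CPM under normoxia. Every normoxia library was below 1 CPM, a log2 fold change of -7.85 (SE 0.298, adjusted p = 1.37e-09). Cxcl1, a neutrophil-attracting chemokine, was at 19.1, 28.3 and 19.7 CPM in C57BL/6J controls and at 126, 109 and 102 CPM in DBA/2J controls. It was at 0.962, 0.0990 and 0.255 CPM and at 1.23, 0.938 and 0.505 CPM under normoxia, a log2 fold change of -6.26 (SE 0.264, adjusted p = 1.62e-09), or -6.93 without C57BL/6J normoxia replicate 1. The control levels of Cxcl1 differed between the strains and the normoxia levels overlapped. For Il11, of the same receptor family as Lif, 16 counts under normoxia stood against 697 in the C57BL/6J controls, a ratio of 49.7 (95% counting interval 30.4 to 87.4), and 12 against 1786 in DBA/2J, a ratio of 171 (97.6 to 331).

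The NF-kappaB list, which holds subunits of the factor and genes it is known to induce, had 19 of 20 members lower and 1 higher, with a median log2 fold change of -1.83. Tnfaip3, which shuts off signaling to NF-kappaB, was at 121, 161 and 144 CPM in C57BL/6J controls and at 234, 191 and 164 CPM in DBA/2J controls. Under normoxia it was at 9.67, 10.8 and 9.13 CPM and at 8.02, 9.17 and 9.29 CPM, a log2 fold change of -4.15 (SE 0.105, adjusted p = 2.10e-13). The groups did not overlap. Nfkbiz, an inducible nuclear cofactor, fell by 3.04 on the log2 scale and the subunit gene Rela by 1.82 (SE 0.0909). The member that rose was Sod2, the mitochondrial superoxide dismutase, by 0.26 (SE 0.0783, adjusted p = 0.00858), with libraries of the groups overlapping.

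Small proline-rich genes code for proteins that are known from the cornified envelope of the skin. Of 15 genes in the list, 6 were expressed enough to be tested, and all 6 of these fell. Since 5 of them were at 3 counts or fewer in every library of at least 1 group, the median log2 fold change of -8.40 depends on the fit, and it was -5.19 with those genes at their bound. These 5 could pass the low-count filter only through groups where they were higher. Their falls were therefore largely set by the filter. Sprr1a (chr3:92483952-92485895) was at 613, 1135 and 725 CPM in C57BL/6J controls and at 523, 671 and 724 CPM in DBA/2J controls. It was at 0.350, 0 and 0.102 CPM and at 0.368, 0.156 and 0.252 CPM under normoxia, so that 10 counts in C57BL/6J stood against 45130 in the controls and 18 in DBA/2J against 37052. The ratios of control to normoxia were 5146 (95% counting interval 2798 to 10731) and 2363 (1495 to 3988). For Sprr2g the ratios were 2454 (440 to 96958), from 1 count in C57BL/6J, and 433 (185 to 1335), from 5 counts in DBA/2J. The fitted log2 fold change of Sprr1a was -11.73 (SE 0.322) and moved to -12.49 without C57BL/6J normoxia replicate 1.

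Markers of tubular injury were lower under normoxia throughout the list, with 20 of 20 genes falling and a median log2 fold change of -2.49. Krt18, a keratin of simple epithelia that rises in injured tubules, was at 636, 717 and 564 CPM in C57BL/6J controls and at 418, 528 and 580 CPM in DBA/2J controls. It was at 16.7, 19.5 and 14.5 CPM and at 12.4, 17 and 16.7 CPM under normoxia, a log2 fold change of -5.13 (SE 0.131, adjusted p = 2.10e-13). Krt19 fell by 5.84 (SE 0.267), Sox9, a factor of regenerating tubule cells, by 4.02 (SE 0.232), and neither overlapped between the groups. Lcn2 was at 12.3, 29 and 13.2 CPM and at 29.6, 4.55 and 6.23 CPM in the controls, and at 1.27, 3.42 and 3.67 CPM and at 2.78, 0.521 and 1.09 CPM under normoxia, a log2 fold change of -2.92 (SE 0.611, adjusted p = 0.00214). The spread among DBA/2J controls was wide, and without DBA/2J control replicate 1 the log2 fold change of Lcn2 was -2.24. Havcr1 differed by strain: it was at 1.06, 1.58 and 1.24 CPM in C57BL/6J controls and at 1.31, 1.04 and 1.28 CPM under normoxia, which overlap, but at 33.9, 19.1 and 17.7 CPM and at 5.08, 2.87 and 3.66 CPM in DBA/2J. Its log2 fold change was -0.17 in C57BL/6J (adjusted p = 0.725) and -2.48 in DBA/2J (adjusted p = 2.66e-06), a difference of -2.31 (SE 0.451, adjusted p = 0.0154). In the 24 h controls Havcr1 was at 240 ± 27.5 CPM in C57BL/6J, and in DBA/2J at 597 ± 279 CPM (SD, n = 3).

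Most heat shock chaperones of the cytosol fell. Of 22 genes, 18 fell and none rose, with a median log2 fold change of -1.10, and the 4 that did not pass the test included Hsf1, the factor that drives the response. Hspa1a, an inducible HSP70 gene (chr17:34969190-34972156), was at 1956, 902 and 1117 CPM in C57BL/6J controls and at 366, 362 and 359 CPM in DBA/2J controls. It was at 8.09, 13.7 and 8.98 CPM and at 4.18, 3.91 and 6.31 CPM under normoxia, a log2 fold change of -6.60 (SE 0.231, adjusted p = 1.58e-10). Hspa1b, its near-identical neighbor, with which reads could be shared, fell by 6.57 (SE 0.251). Both genes were higher in C57BL/6J than in DBA/2J controls without overlap. Hspb1, a small heat shock protein, averaged 596 CPM in C57BL/6J controls, 157 CPM in those of DBA/2J and 10 and 6.52 CPM under normoxia, a log2 fold change of -5.97 in C57BL/6J and -4.48 in DBA/2J. The strain difference in that change was 1.49 (adjusted p = 0.00334), and 6 of the 22 genes differed between the strains in this way, against 3.66% of all genes tested.

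In the list of the unfolded protein and integrated stress response, 17 of 20 genes fell and 2 rose, with a median log2 fold change of -0.86. Its largest falls included Chac1, Ddit3, Trib3 and Asns. Chac1, which breaks down glutathione, was at 60.8, 154 and 92.9 CPM and at 54.9, 53.6 and 56.2 CPM in the controls, against 0.744, 0.842 and 1.33 CPM and 0.246, 0.782 and 0.505 CPM under normoxia. Its log2 fold change was -6.74 (SE 0.309, adjusted p = 8.59e-09), while the pro-apoptotic factor Ddit3 (CHOP) fell by 4.61 (SE 0.103), Trib3 by 4.61 (SE 0.278) and Asns, which makes asparagine, by 3.41 (SE 0.215). Hspa5, the main chaperone of the endoplasmic reticulum, fell by 2.72 (SE 0.150). The members that rose did so by little, Edem1, which sends misfolded glycoproteins to degradation, by 0.32 (SE 0.0786) and the co-chaperone Dnajc3 by 0.19 (SE 0.0580). In C57BL/6J neither passed the test, at 0.05 (adjusted p = 0.712) and 0.07 (adjusted p = 0.526). In DBA/2J they were at 0.58 and 0.32.

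Among genes known to be induced by hypoxia, 22 of 24 fell and 1 rose, with a median log2 fold change of -1.29. The 4 deepest falls were in Hk2, Pfkfb3, the lactate exporter gene Slc16a3 and Slc2a1, all of glucose handling. Slc2a1, the glucose transporter GLUT1 (chr4:119108711-119137983), was at 2117, 3085 and 2476 CPM in C57BL/6J controls and at 1798, 2039 and 2031 CPM in DBA/2J controls. Under normoxia it was at 64.1, 84.9 and 78.7 CPM and at 50, 49.6 and 52.2 CPM, a log2 fold change of -5.16 (SE 0.125, adjusted p = 1.21e-13), with -5.16 in each strain. Pfkfb3, whose product speeds up glycolysis, fell by 5.93 (SE 0.130), from between 992 and 1833 CPM to between 13.7 and 31.8 CPM, and Hk2, an inducible hexokinase, by 6.07 (SE 0.187). Vegfa, the endothelial growth factor, was at 708, 1041 and 845 CPM and at 822, 938 and 806 CPM in the controls, and at 285, 274 and 268 CPM and at 219, 261 and 282 CPM under normoxia, a log2 fold change of -1.69 (SE 0.102, adjusted p = 2.80e-09). The glycolytic enzymes Pgk1 and Ldha changed less, by -0.59 and -0.58 on the log2 scale. Car9, a carbonic anhydrase and a standard target of the hypoxia-inducible factor, went the other way. It was at 2.57, 1.24 and 2.02 CPM and at 1.83, 3.16 and 1.37 CPM in the controls, and at 10.8, 8.07 and 9.69 CPM and at 4.71, 4.43 and 4.16 CPM under normoxia, a log2 fold change of 1.70 (SE 0.190, adjusted p = 1.76e-06).

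The remaining stress and signaling lists were more mixed, apart from the genes that respond to glucocorticoids. Of 19 tested NRF2 targets, 7 fell, 6 rose and 6 did not pass, with a median log2 fold change of -0.05. Hmox1, which breaks down heme, fell by 5.28 (SE 0.259), from between 661 and 2099 CPM to between 19.2 and 37.3 CPM, and the peroxiredoxin repair enzyme Srxn1 by 3.36 (SE 0.187). Nqo1, a quinone reductase often used as an NRF2 readout, rose by 0.51 (SE 0.0733) and the glutathione transferase Gstm1 by 0.88 (SE 0.102). By strain, Nqo1 was at 0.78 in C57BL/6J and 0.23 in DBA/2J (adjusted p = 0.0698). Of 18 p53 targets, 10 fell and 4 rose. The growth factor relative Gdf15 fell by 5.28 (SE 0.125) and Plk2 by 4.35 (SE 0.183), while Sesn1 rose by 0.80 (SE 0.0907) and Trp53inp1 by 0.76 (SE 0.0684). Of 8 tested metallothionein and zinc genes, 3 fell and 3 rose: the metal-binding Mt2 and Mt1 fell by 3.32 (SE 0.153) and 2.24 (SE 0.0867), and the zinc exporter Slc30a2 rose by 1.09 (SE 0.159). Of 11 tested genes that respond to glucocorticoids, 9 fell and 1 rose, with a median log2 fold change of -1.36. Pdk4, an inhibitor of pyruvate dehydrogenase, fell by 3.47 (SE 0.226), and Tsc22d3 (GILZ) rose by 0.32 (SE 0.0681).

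Most growth factor and matrix genes also fell. Of 20 targets of TGF-beta or YAP, 19 fell and none rose, with a median log2 fold change of -1.54. Ankrd1, a YAP target, fell by 5.29 (SE 0.216), and Adamts4, a protease of proteoglycans, by 7.23 (SE 0.341). In the EGF receptor list, 7 of 11 tested genes fell and 3 rose. The ligands Hbegf and Nrg1 fell by 4.37 (SE 0.184) and 3.56 (SE 0.210), whereas the ligand Btc rose by 0.83 (SE 0.141) and the receptors Erbb3 and Erbb2 by 1.01 (SE 0.0716) and 0.70 (SE 0.0632). Of 17 collagen genes, 14 fell and 1 rose, with a median log2 fold change of -1.36. Col1a1, of fibrillar collagen, was at 45.9, 25.2 and 43.9 CPM and at 102, 11.9 and 14.2 CPM in the controls, and at 19, 19.3 and 15.9 CPM and at 5.69, 5.63 and 6.77 CPM under normoxia, a log2 fold change of -1.93 (SE 0.533, adjusted p = 0.0105). A single control library, DBA/2J replicate 1, stood high, and without it the log2 fold change of Col1a1 was -1.05. The member that rose was Col4a4 of the glomerular basement membrane, by 0.31 (SE 0.0743).

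Clock genes, ribosome biogenesis and the cell cycle were described as background processes. Of 19 clock genes, 13 fell and 5 rose. Bhlhe40, a repressor that also responds to stress, fell by 4.48 (SE 0.132), from between 788 and 1612 CPM to between 41.6 and 57.7 CPM, and the heme receptor Nr1d1 by 3.04 (SE 0.105). The activator Arntl was at -0.01 (SE 0.0955, adjusted p = 0.941), and Tef rose by 0.72 (SE 0.0821). The time of day at sampling is not given in the labels. Of 20 ribosome biogenesis genes, 15 fell and 3 rose, with a median log2 fold change of -0.57, led by the nucleolar proteins Gnl3 (-1.73, SE 0.103) and Nop58 (-1.57, SE 0.113). Of 20 cell cycle genes, 4 fell, 1 rose and 15 did not pass the test, with a median of -0.01.

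**Figure D2:**
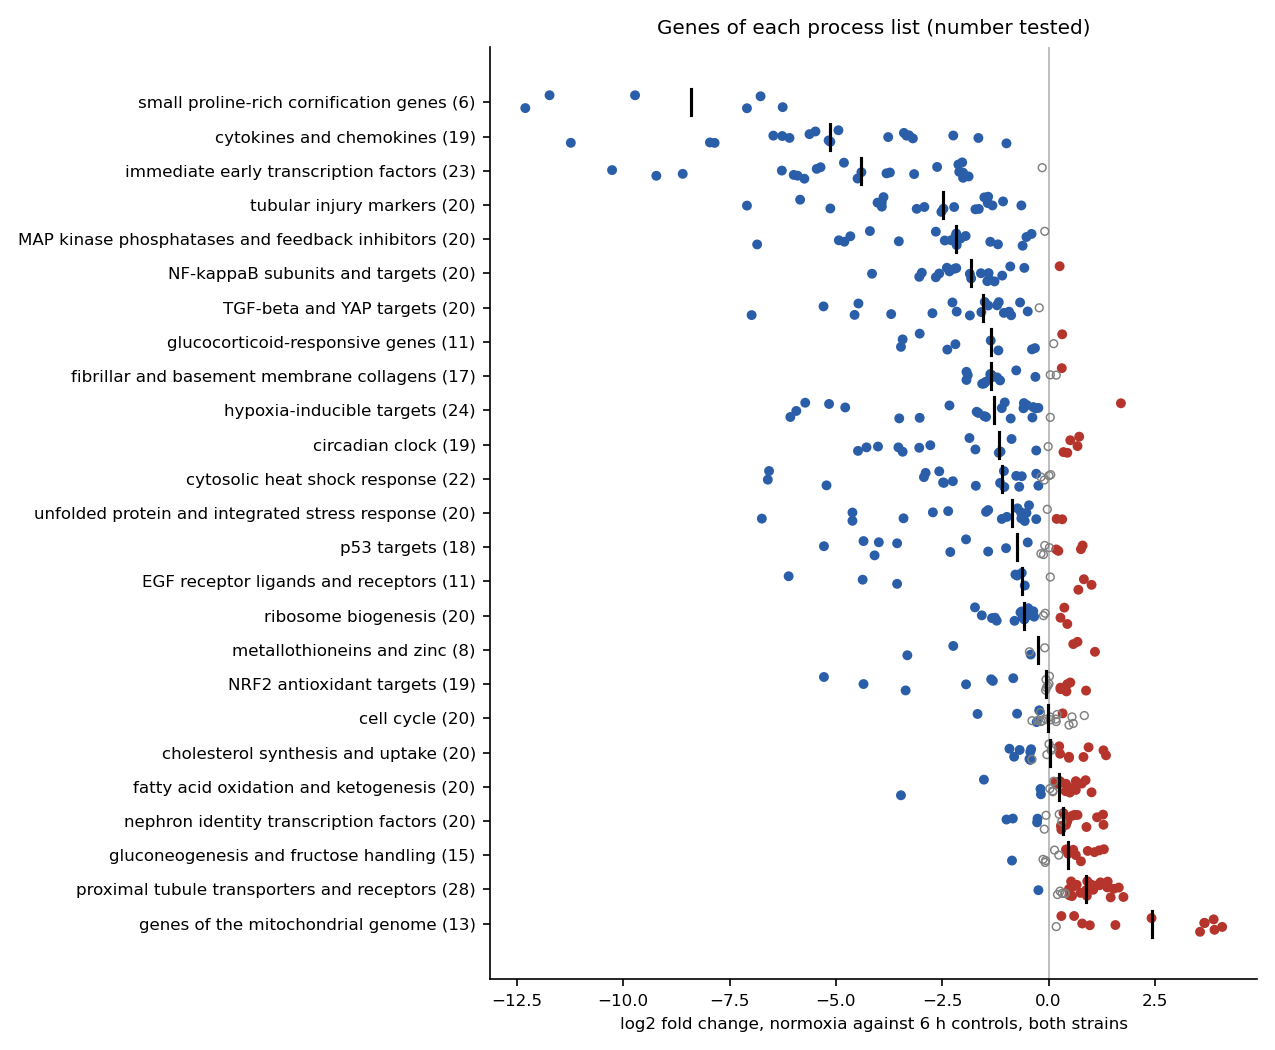
Fitted log2 fold changes (normoxia against 6 h controls, both strains) of the tested genes of each process list, with the number tested in parentheses and a black bar at the median. Filled points passed an adjusted p of 0.05 (blue lower, red higher) and open points did not. The list medians run from -8.40 for small proline-rich genes, or -5.19 with genes near 0 at their bound, to 2.42 for the mitochondrial genome.

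Most proximal tubule transporters and receptors were higher under normoxia. Of 28 genes, 22 rose, 1 fell and 5 did not pass the test, with a median log2 fold change of 0.89. Lrp2 (megalin), the receptor that takes up filtered protein, was at 579, 278 and 499 CPM in C57BL/6J controls and at 862, 1026 and 1030 CPM in DBA/2J controls. It was at 914, 665 and 940 CPM and at 1906, 2012 and 2158 CPM under normoxia, a log2 fold change of 1.00 (SE 0.147, adjusted p = 3.90e-05). The values were higher in DBA/2J in both conditions, and the groups did not overlap within a strain. Slc34a1, the main phosphate transporter of this segment (chr13:55398187-55415592), was at 2907, 1409 and 2474 CPM and at 3188, 3005 and 3658 CPM in the controls, and at 4521, 2622 and 4081 CPM and at 6432, 6514 and 7346 CPM under normoxia. Its log2 fold change was 0.90 (SE 0.164, adjusted p = 0.000239), and C57BL/6J replicate 2 of normoxia lay below the highest control of that strain. C57BL/6J replicate 2 was also the lowest of the 3 C57BL/6J controls for Slc34a1 and for Lrp2. Aqp1, the water channel, rose by 1.76 (SE 0.149), from between 67.3 and 257 CPM to between 365 and 640 CPM, and the dicarboxylate transporter Slc13a3 by 1.65 (SE 0.224). Slc22a12, the urate transporter, rose by 1.39 (SE 0.167) and Slc22a6, which takes up organic anions, by 1.05 (SE 0.185). The glucose transporter Slc5a2 had a log2 fold change of 0.39 (SE 0.182, adjusted p = 0.0736). The member that fell was Slc9a3, the sodium-proton exchanger, by 0.24 (SE 0.0697, adjusted p = 0.00748), at -0.65 in C57BL/6J and 0.17 (adjusted p = 0.155) in DBA/2J. That call was lost in the fit of all 48 libraries (adjusted p = 0.487) and in the additive model (adjusted p = 0.122).

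Outside the mitochondrial genome, the 4 genes that met the rule for the largest rises were 3 transporters and a protease. Slc22a19, an organic anion transporter (chr19:7673061-7711310), was at 0.839, 3.16 and 2.12 CPM in C57BL/6J controls and at 8.86, 2.79 and 6.46 CPM in DBA/2J controls. It was at 27.1, 79.1 and 66.0 CPM and at 31.5, 12 and 11.6 CPM under normoxia, a log2 fold change of 3.23 (SE 0.474, adjusted p = 0.000226). Slc22a7, of the same family, was at 9.23, 8.51 and 10.5 CPM and at 47.4, 31.3 and 68.6 CPM in the controls, and at 75.3, 148 and 130 CPM and at 114, 112 and 121 CPM under normoxia. Under normoxia the strains reached similar levels of Slc22a7 from different control levels, so that its log2 fold change was 3.57 in C57BL/6J and 1.35 in DBA/2J. Slc38a3, a glutamine transporter, rose by 2.38 (SE 0.155, adjusted p = 1.43e-08) and Mep1b, a subunit of the brush border protease meprin, by 2.54 (SE 0.348, adjusted p = 0.000125).

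Metabolic lists and the factors that define nephron segments held genes that rose and genes that fell. Of 15 genes of gluconeogenesis and fructose handling, 9 rose and 1 fell, with a median log2 fold change of 0.46. G6pc, the final enzyme of glucose output, was at 124, 68.6 and 125 CPM and at 247, 238 and 320 CPM in the controls, and at 233, 139 and 230 CPM and at 748, 860 and 913 CPM under normoxia, a log2 fold change of 1.30 (SE 0.164, adjusted p = 1.40e-05). The groups of each strain did not overlap. The aminotransferase gene Gpt rose by 1.19 (SE 0.127) and Got1 fell by 0.86 (SE 0.0676). Of 20 genes of fatty acid oxidation, 12 rose and 4 fell, with Cpt2, a carnitine transferase of the inner mitochondrial membrane, higher by 0.87 (SE 0.0797) and Ppargc1a, a coactivator of mitochondrial genes, lower by 1.52 on the log2 scale (log2 fold change -1.52, SE 0.106). Of 20 nephron transcription factors, 12 rose and 4 fell, with a median of 0.33. Hnf4a, the factor of proximal tubule maturation (chr2:163506808-163572910), was at 158, 101 and 118 CPM and at 299, 319 and 343 CPM in the controls, and at 414, 311 and 345 CPM and at 641, 634 and 661 CPM under normoxia, a log2 fold change of 1.28 (SE 0.102, adjusted p = 5.27e-08). Emx2 rose by 1.29 (SE 0.0981), while Wt1, a podocyte factor, and Pax8 fell by 0.99 (SE 0.0985) and 0.84 (SE 0.0573). Of 20 cholesterol genes, 8 rose and 7 fell, with a median of 0.03: Cyp51, an enzyme of late sterol synthesis, rose by 1.29 (SE 0.103), and the synthase gene Fdft1 fell by 0.92 (SE 0.0742).

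Of the 13 protein-coding genes of the mitochondrial genome, 12 rose and mt-Cytb did not pass the test (log2 fold change 0.18). The listed rises ran from 0.30 for mt-Nd4 to 4.08 for mt-Nd4l on the log2 scale. The 6 controls of mt-Co2 lay between 3.32 and 10.8 CPM and the 6 normoxia libraries between 18.2 and 219 CPM, and it rose by 3.66 (SE 0.186), with mt-Co3 and mt-Atp6 close to it at 3.56 (SE 0.191) and 3.88 (SE 0.265). An annotated stretch of chromosome 1 (24611535 to 24616197) holds 6 unprocessed pseudogenes that copy part of the mitochondrial genome. In an ungapped comparison of the annotated transcripts they were identical to mt-Co2, mt-Co3 and mt-Atp6 over 681, 783 and 678 aligned bases, at least 99.6% of each gene, and matched mt-Nd3 at 344 of 345 bases. A further copy was identical to 876 of the 1378 bases of mt-Nd4, and another matched 486 of 492 aligned bases of mt-Co1, which has 1545. Reads that match both places can be lost or split in counting, so the values of these 6 genes are uncertain, mt-Nd4 at the low end of the range and mt-Co1 (0.97) included. The same holds for mt-Atp8 and mt-Nd4l, which lie between the copied genes and had no annotated copy to compare. None of the 6 pseudogenes matched mt-Nd1, mt-Nd2, mt-Nd5 or mt-Nd6 at 90% identity or more over at least 100 bases, and these rose by 0.79, 0.60, 1.57 and 2.42.

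Markers of cell types other than the proximal tubule moved beside these results, and in a bulk sample fewer cells of a type and less RNA per cell cannot be told apart. Podocyte markers fell in 10 of 10 genes, with a median log2 fold change of -1.28. Synpo (synaptopodin), a protein of the actin skeleton of podocytes, was at 302, 372 and 318 CPM and at 213, 232 and 257 CPM in the controls, and at 161, 146 and 129 CPM and at 61.0, 88.0 and 92.1 CPM under normoxia, a log2 fold change of -1.35 (SE 0.106, adjusted p = 4.31e-08). The summed level of the 10 podocyte markers lay between 2569 and 2672 CPM in C57BL/6J controls and between 1091 and 1412 CPM under normoxia, and between 1957 and 2231 CPM and between 616 and 831 CPM in DBA/2J. Endothelial markers fell in 11 of 12 genes (median -0.75), with Cdh5, an adhesion protein of endothelial junctions, at -1.58 (SE 0.195) and the VEGF receptor gene Flt1 at -1.30 (SE 0.169). Fibroblast and pericyte markers fell in 8 of 10 genes and smooth muscle markers in 5 of 5 tested. Their summed levels were 292 to 405 CPM against 209 to 250 CPM in C57BL/6J, and 267 to 540 CPM against 103 to 137 CPM in DBA/2J, for fibroblasts and pericytes. Of 6 juxtaglomerular and mesangial markers 5 fell, among them the renin gene Ren1, which was at 300, 126 and 511 CPM and at 613, 112 and 522 CPM in the controls and at 104, 69.7 and 105 CPM and at 81.6, 36.8 and 91.3 CPM under normoxia (log2 fold change -2.13, SE 0.487, adjusted p = 0.00364). The part that cell composition has in the falls of collagen, TGF-beta and cytokine genes was not tested.

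Of the tubule lists, proximal tubule markers rose in 7 of 10 genes and none fell. Their summed level was 3863 to 7668 CPM in C57BL/6J controls and 7953 to 11431 CPM under normoxia, and 8904 to 10588 CPM and 17501 to 19471 CPM in DBA/2J. Thick ascending limb markers were divided, with 4 of 8 higher and 1 lower. Their summed level was 13095 to 15618 CPM in C57BL/6J controls and 12637 to 20005 CPM under normoxia, which overlap, and 8939 to 11394 CPM and 5152 to 7075 CPM in DBA/2J, which do not. Umod (uromodulin), the most abundant secreted protein of that segment, had a log2 fold change of -0.12 (SE 0.180, adjusted p = 0.592) and lay between 2655 and 6870 CPM in the controls and between 1467 and 10633 CPM under normoxia. Distal convoluted tubule markers fell in 4 of 7 genes and intercalated cell markers in 4 of 8, with 1 intercalated marker higher. Distal convoluted tubule markers summed to 5188 to 5942 CPM and 4409 to 5921 CPM in C57BL/6J, with overlap, and to 5069 to 6518 CPM and 2474 to 3447 CPM in DBA/2J, without. Intercalated markers summed to 965 to 1019 CPM and 977 to 1086 CPM in C57BL/6J, with overlap, and to 727 to 791 CPM and 431 to 623 CPM in DBA/2J, without. Principal cell markers rose in 4 and fell in 4 of 8 genes. Their summed level went opposite ways in the strains without overlap, with C57BL/6J going up from between 728 and 914 CPM to between 1008 and 1060 CPM, while DBA/2J went down from between 665 and 783 CPM to between 473 and 624 CPM. These strain differences in summed levels were not tested. Aqp2, the water channel under vasopressin control, was at 105, 68.1 and 71.2 CPM in C57BL/6J controls and 173, 251 and 234 CPM under normoxia, without overlap, but at 87.8, 118 and 73.7 CPM and at 82.9, 103 and 91.0 CPM in DBA/2J, with overlap.

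Immune cell markers did not share a direction. Of 12 macrophage and dendritic cell markers, 5 rose and 2 fell: the chemokine receptor gene Cx3cr1 rose by 1.43 (SE 0.116), Lyz2 by 0.77 (SE 0.149), and the lysosomal marker Cd68 fell by 2.02 (SE 0.112). For Lyz2 the log2 fold change was 1.32 in C57BL/6J and 0.21 in DBA/2J (adjusted p = 0.407). The strain difference of Lyz2 did not pass the test (adjusted p = 0.0574). Cd74, the invariant chain, fell by 0.22 (adjusted p = 0.0417), a call that was lost in 16 of 20 alternative fits. Of 9 tested lymphocyte markers 3 rose and 1 fell, and of 6 tested erythroid markers 1 rose and 1 fell. The erythroid marker that rose, Slc4a1, is also the intercalated marker counted above as higher. Its log2 fold change was 0.78 in C57BL/6J and -0.00 in DBA/2J (adjusted p = 0.996). Of 4 tested neutrophil markers 1 rose and none fell, and their list summed to at most 8.72 CPM in any of the 12 libraries. Adipocyte and urothelium lists had 1 and 2 tested members, of which Fabp4 fell by 0.99 (SE 0.0901) and both urothelium genes rose.

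**Figure D3:**
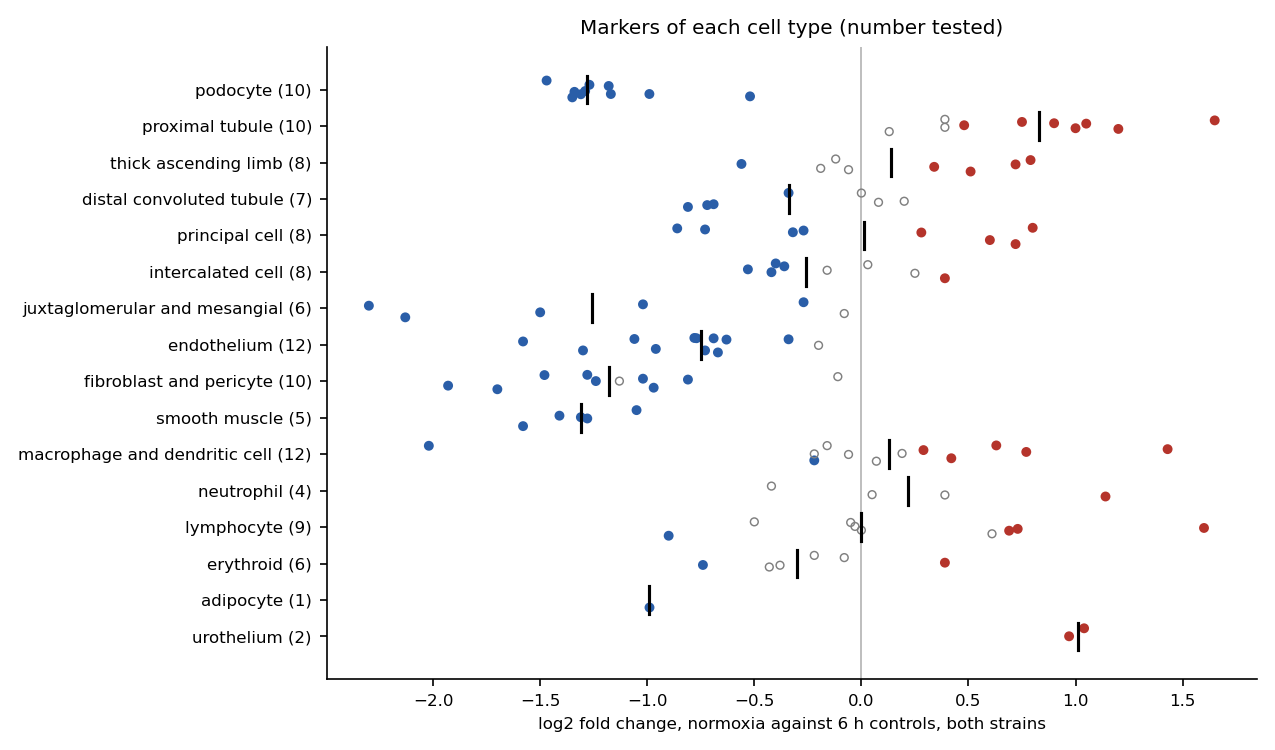
Fitted log2 fold changes (normoxia against 6 h controls, both strains) of the tested markers of each cell type, with the number tested in parentheses, a black bar at the median, filled points for genes that passed an adjusted p of 0.05 (blue lower, red higher) and open points for those that did not. All 10 podocyte markers lie below 0, and all 10 proximal tubule markers lie above 0, of which 7 passed the test.

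The change differed between the strains in 616 genes (3.66%), 312 with a higher and 304 with a lower log2 fold change in DBA/2J than in C57BL/6J. This count depends on single libraries and on the fit. It was 1536 without a filter on low counts, 1181 with DESeq2 and 1462 with the replicate number as a block, and it ranged from 241 to 1125 when each library was left out in turn. It was 1125 without C57BL/6J control replicate 1, 315 without C57BL/6J control replicate 3, 241 and 373 without C57BL/6J normoxia replicates 2 and 3, 267 and 310 without DBA/2J control replicates 1 and 2, and 340, 245 and 395 without DBA/2J normoxia replicates 1, 2 and 3. With library totals alone as the scaling it was 871, of which 129 were higher in DBA/2J. Gcnt1, a glycosyltransferase that builds branched O-glycans (chr19:17326141-17372844), had the smallest p-value. It was at 107, 77.1 and 111 CPM in C57BL/6J controls and at 277, 313 and 339 CPM under normoxia, but at 58.6, 52.2 and 45.8 CPM and at 3.28, 1.82 and 1.09 CPM in DBA/2J. The strains moved in opposite directions without overlap, by log2 fold changes of 1.58 and -4.53, a difference of -6.11 (SE 0.335, adjusted p = 3.43e-06). Hdc, which makes histamine (chr2:126593667-126619299), was at 1.45, 2.42 and 2.43 CPM in C57BL/6J controls and at 0.306, 0.594 and 0.714 CPM under normoxia. In DBA/2J it was at 207, 215 and 244 CPM and at 410, 379 and 410 CPM, so that the level was far higher in that strain in both conditions. The change in Hdc was -2.06 in C57BL/6J and 0.96 in DBA/2J on the log2 scale, a difference of 3.02 (SE 0.314, adjusted p = 0.000802). S1pr3, a receptor for sphingosine-1-phosphate, fell in both strains, at -1.81 in C57BL/6J and -4.04 in DBA/2J on the log2 scale, and so did Klf11, a zinc finger factor, at -0.61 and -2.25. Bspry fell in C57BL/6J (log2 fold change -1.17) and was at -0.16 in DBA/2J (adjusted p = 0.121), and Nav2 fell in C57BL/6J by 0.55 and rose in DBA/2J by 0.38.

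**Figure D4:**
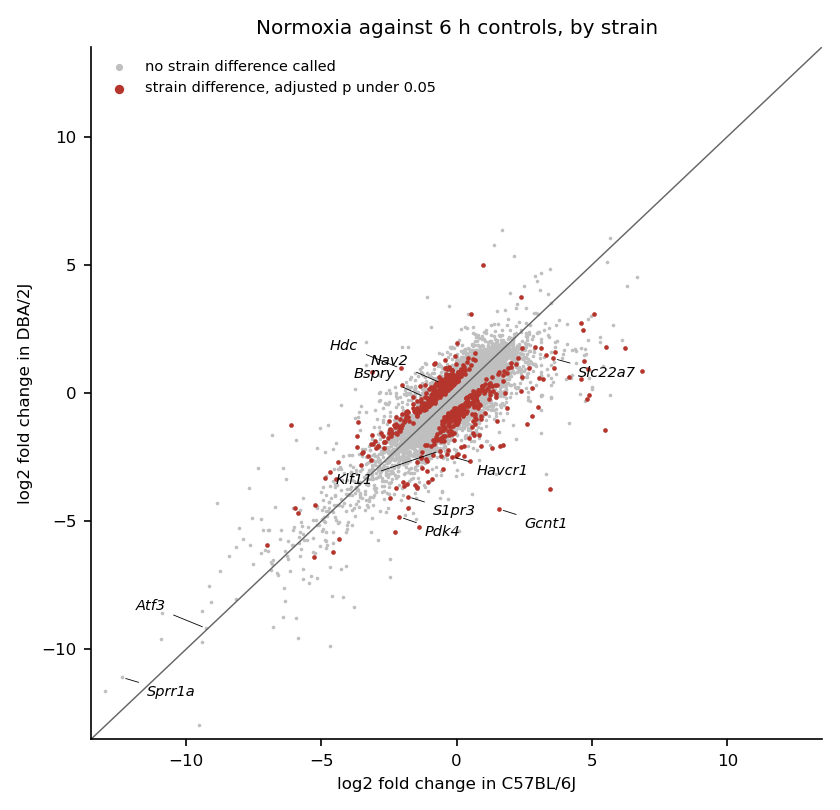
Fitted log2 fold change (normoxia against 6 h controls) of each tested gene in C57BL/6J on the horizontal and DBA/2J on the vertical axis, with the line of equal change. Red points are the 616 genes whose change differed between the strains at an adjusted p under 0.05. Gcnt1 lies at 1.58 and -4.53, in the quadrant of opposite change.

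Levels in 2 further conditions are set beside these as a description, with no test, since they share a design with other comparisons. The first is the control at 24 h and the other the normoxia-hyperoxia arm, which the labels call a reperfusion model. In that order, Atf3 averaged 387 ± 73.5 and 1471 ± 366 CPM in C57BL/6J and 373 ± 54.6 and 1188 ± 136 CPM in DBA/2J (SD, n = 3). Sprr1a averaged 6413 ± 601 and 884 ± 212 CPM in C57BL/6J, and Slc2a1 averaged 1993 ± 162 and 1960 ± 327 CPM. In DBA/2J the means of Sprr1a were 5119 and 797 CPM and those of Slc2a1 1732 and 1593 CPM. For these 3 genes the normoxia mean was the lowest of the 4 conditions in both strains. Slc34a1 averaged 290 ± 81.1 CPM in 24 h controls and 82.5 ± 17.6 CPM under normoxia-hyperoxia in C57BL/6J, and 815 ± 302 and 371 ± 72.8 CPM in DBA/2J, and Lrp2 averaged 79.8 ± 6.31 and 35.2 ± 5.39 CPM in C57BL/6J. The normoxia libraries had the highest mean levels of Slc34a1 and Lrp2 among these 4 conditions in both strains, followed by the 6 h controls. Gcnt1 in DBA/2J averaged 30.6 ± 2.39 and 34.1 ± 4.23 CPM in those conditions, against 2.06 ± 1.11 CPM under normoxia.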

How the data were processed

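Total RNA of kidney slices was sequenced with a stranded mRNA kit, per the labels' protocols. The authors deposited whole-number counts per Ensembl gene without normalization. The submitters' processing notes name bcl2fastq 2.20.0, FastQC 0.11.8, STAR 2.7.9a, featureCounts 1.5.1 and build GRCm38. The strand setting and annotation release are not given in the sources used here, so overlapping and near-identical genes are uncertain. Symbols matched 55141 of 55487 IDs, and positions are from GENCODE M21.

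The 12 libraries (4 groups of 3) were fitted with edgeR 4.0.16 (R 4.3.3, limma 3.58.1): TMM scaling, default filter on low counts, a mean per group, robust quasi-likelihood F test and 8 residual degrees of freedom before moderation. The main contrast is the mean of both strains' effects, and the strain difference is DBA/2J minus C57BL/6J. The same procedure, tested on simulated data, recovered 96 of 100 genes changed by log2 1 and 98 of 100 changed by log2 2 among 16487 genes, with 11 false calls. Only those genes were changed there, as many up as down and alike in both strains, and the libraries were independent. In the data 11059 of 16819 genes passed, so the simulation does not measure the false calls among them. Groups with 3 counts or fewer in every library were treated as at the floor.

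Named genes are the 10 largest rises and falls (mean log2 CPM of at least 3, no overlap in both strains), up to 2 rises and 2 falls in each of 25 process and 16 cell type lists, 12 genes chosen by name, and 6 genes by strain difference. Predicted gene names were passed over. Further list members in the text were named after their values were seen. The comparison, lists and rule were chosen with earlier results of these data known. Alternatives were other scalings, no filter, DESeq2 1.42.0, a fit of all 48 libraries, an additive model, a replicate block and leaving out each library. Some members of the lists and 1 of the motifs searched are not reported here.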

Additional observations from a re-analysis of the deposited data

Results flagged for a closer look

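The results listed here drew attention because the response to normoxia differed between the strains by edgeR's quasi-likelihood test of the interaction, at a Benjamini-Hochberg adjusted p under 0.05. This held for 616 genes in the fit without a replicate block, and for 1462 with the block. Values are the log2 fold change in DBA/2J minus that in C57BL/6J, with 3 libraries in each of the 4 groups. The difference was -6.11 for Gcnt1, 3.02 for Hdc, -2.23 for S1pr3, 1.01 for Bspry, -1.64 for Klf11 and 0.94 for Nav2. Among transporters and water channels it was -2.22 for Slc22a7, -1.80 for Slc38a3, 0.82 for Slc9a3, -0.78 for Slc4a1 and -1.26 for Aqp2. Among stress and metabolic genes it was -2.31 for Havcr1, 1.19 for Gdf15 and -2.72 for Pdk4. For the smooth muscle genes Tagln and Myh11 it was -0.85 and -1.13. For genes of the mitochondrial genome it was -1.87 for mt-Co2, -2.21 for mt-Co3, -1.99 for mt-Nd4l and 1.35 for the transfer RNA gene mt-Tl1. Of these, mt-Co2 and mt-Co3 share sequence with copies on chromosome 1 and mt-Nd4l lies between genes that do. Adjusted p-values near the threshold were 0.0467 for mt-Nd4l, 0.0449 for Slc4a1 and for Myh11 and 0.0304 for Tagln, against 3.43e-06 for Gcnt1. Only the differences of Gcnt1, Hdc, S1pr3, Bspry, Klf11 and Nav2 were rerun under the alternatives.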

How the results depend on the processing

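Counts of genes changed over both strains stayed between 10794 and 11575 under other scalings, no filter, DESeq2, a fit of all 48 libraries, an additive model and the replicate block, against 11059. The number of strain differences was less stable: 616 became 1536 without a filter on low counts, 1181 with DESeq2 and 1462 with the replicate block. The cause was not tested. With library totals alone it was 871, of which 129 were higher and 742 lower in DBA/2J (14.8% higher, against 50.6%), and the DBA/2J count was 3580 higher and 5437 lower of 9017 (39.7% higher, against 50.3%). Leaving out 1 library at a time gave 10590 to 11364 genes over both strains, 2969 to 3384 beyond log2 1, 7645 to 9259 in C57BL/6J, 8271 to 9936 in DBA/2J, 241 to 1125 strain differences, 7661 to 8561 genes without overlap and 5.88 to 6.59 percentage points for the mitochondrial share. Strain differences numbered 1125 without C57BL/6J control replicate 1, 315 without C57BL/6J control replicate 3, 241 and 373 without C57BL/6J normoxia replicates 2 and 3, 267 and 310 without DBA/2J control replicates 1 and 2, and 340, 245 and 395 without DBA/2J normoxia replicates 1, 2 and 3. With the replicate block, 11387 genes passed over both strains. Libraries with the same number correlated at 0.0667 to 0.257 in their deviations from the group means, over 0.1 in 5 of 6 pairs (0.168 to 0.257 in DBA/2J, 0.0667 to 0.209 in C57BL/6J). Since 1 pair was under 0.1, a cut set by choice, the numbers were not taken to pair libraries in the main fit. Libraries of a strain with different numbers correlated at -0.212 to 0.021. The cut does not show that the libraries are unpaired. Every library correlated best with its own number, which is a hint from the data. Of 133 fold changes of named genes, 127 kept direction and call in every alternative run. Umod, at -0.12 and not past the test, ranged from -0.27 (without DBA/2J normoxia replicate 1) to 0.02 (without DBA/2J normoxia replicate 3) and was at 0.01 without DBA/2J control replicate 1. Hdc, whose strains moved apart, had a mean log2 fold change of -0.55 that became 0.33 in the additive model. Calls were also lost for Slc9a3, Egf, Cd74 and Gcnt1 in some alternatives. With 3 libraries a group, genes near the floor of 3 counts have fold changes that depend on the fit.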
